A study of Mus musculus with 13 samples.

Results

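Immune checkpoint ligands and receptors were followed across bulk RNA-seq libraries of mouse MP ovarian tumors and normal ovaries. The 10 genes were taken by symbol from the 53465 genes of the deposited table, namely the ligands Cd274, Pdcd1lg2, Cd47, Cd80 and Cd86 and the receptors Pdcd1, Ctla4, Lag3, Havcr2 and Tigit. The MP tumors (n = 10) were EPO-GEMM tumors of the genotype labelled Myc;p53-/-, made by electroporating DNA into the ovary of female C57BL/6 mice that were 8 to 12 wk old, with a transposon carrying MYC and a CRISPR vector against Trp53, the gene of the tumor suppressor p53. The comparison group was normal ovary of WT C57BL/6 mice (n = 3), and the labels give both groups as untreated. Electroporation was not restricted to 1 cell type, tumors were collected at end point as whole tissue, and RNA from tumor cells, leukocytes, vessels and stroma was pooled in each library. The labels do not say more about how the animals of a group were related, and P values measure the spread between these libraries.

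Checkpoint receptors are carried mainly by T and NK cells and dampen their activation once bound. PD-1 (Pdcd1) binds PD-L1 (Cd274) and PD-L2 (Pdcd1lg2), while CTLA-4 competes with the costimulatory receptor CD28 for CD80 and CD86 on antigen-presenting cells. CD47, found on most cells, binds SIRPα (Sirpa) on macrophages and restrains phagocytosis.

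The table held TPM, a transcript level scaled to gene length and to the library total. Reads per gene were worked back from it, and came to between 31445004 and 64013840 per WT ovary and between 3892690 and 19906507 per MP tumor. Every WT ovary was thus deeper than every tumor. Library names carried 1 of 3 project numbers of unstated meaning, which placed the 3 WT ovaries and MP tumors 1, 2 and 3 in library set 1, MP tumors 4, 5 and 6 in set 2, and MP tumors 7 to 10 in set 3. No WT ovary was in sets 2 and 3, so the effect of group can be seen apart from that of the set within library set 1 alone. Trp53, the gene targeted in the tumors, stood at 80.7 to 85.4 TPM in WT ovaries and at 4.30 to 26.0 TPM in MP tumors 1 to 9, but at 187 TPM in the library labelled MP tumor 10. RNA of an edited gene need not fall, and that level sets the library apart from the other tumors. Whether its label is right was not tested. The library is counted with the tumors as labelled, and values without it are given where a result rests on it. Markers of follicle and luteal cells summed to between 28387 and 34327 TPM in WT ovaries and to between 22.97 and 2291 TPM in the tumors, with 1766 TPM in MP tumor 10. Those of epithelium summed to 286 to 317 TPM in WT ovaries and to 8.27 to 1200 TPM in the tumors. In 7 of 10 tumors the epithelial sum was below that of every WT ovary.

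Among the members, Pdcd1 and Tigit showed the widest separation of the groups, and both were expressed in WT ovary and close to the limit of detection in MP tumors. Cd47 was the most abundant member in both tissues and was lower in 9 of 10 tumors. Cd274 varied among tumors over a range that contained the whole WT range. Of the 10 members, 8 reached 1 TPM in at least 3 libraries and were tested by limma on log2(TPM + 1), 3 were called lower in MP tumors at a Benjamini-Hochberg adjusted P under 0.05 (Pdcd1, Tigit and Cd47) and 0 were called higher, which was also 0 by limma at an unadjusted P under 0.05 and by limma-voom on reads. Across all 17277 genes tested, 16.8% were called, 14.3% lower and 2.51% higher. Pdcd1 passed that filter through the WT ovaries alone, and Tigit, which reached 1 TPM in 2 tumors, could not have passed without them, so the count is a description of the members and not support for a shared direction.

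**Figure D1:**
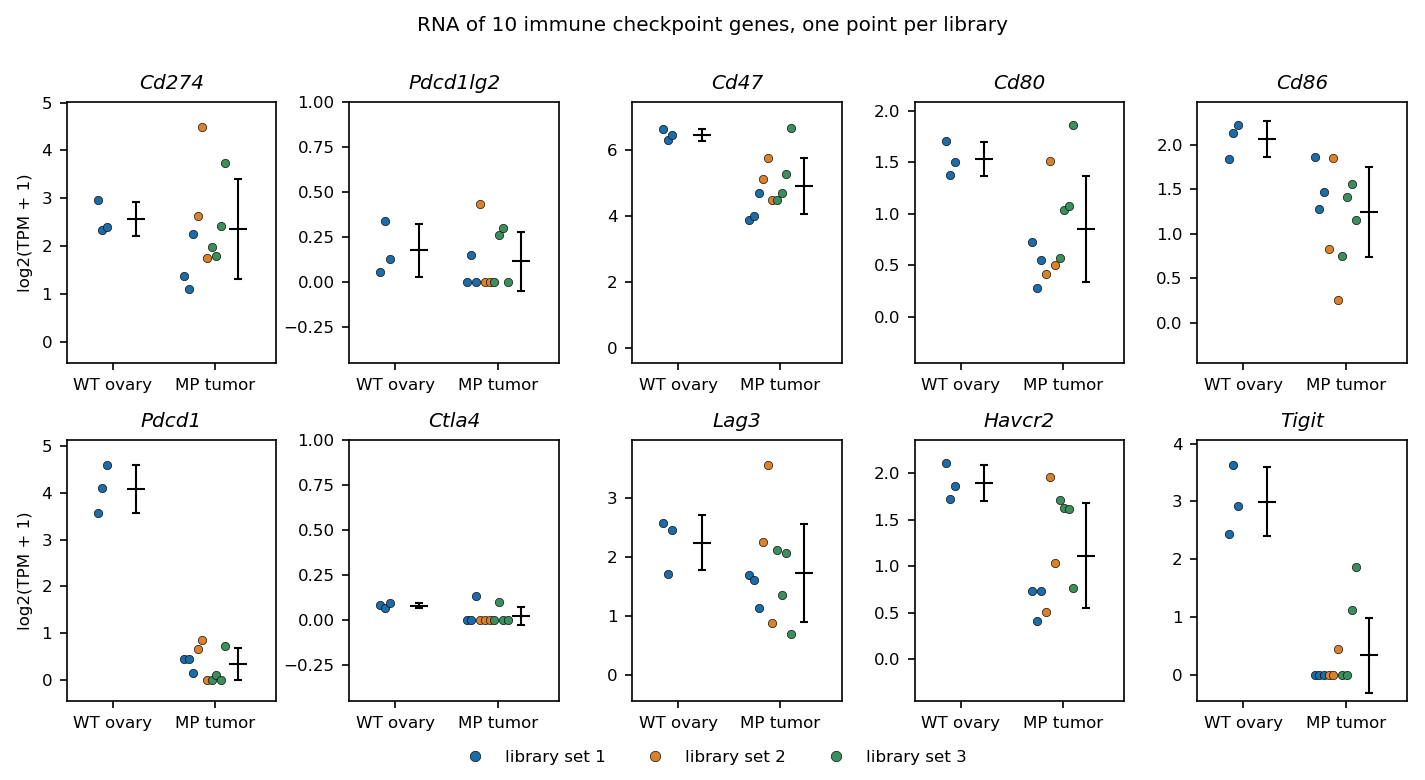
TPM of the 10 checkpoint genes in each library on a log2(TPM + 1) axis, WT ovaries (n = 3) beside MP tumors (n = 10), with dots colored by library set and bars giving the mean ± SD. Pdcd1 and Tigit separate the groups in every library, Cd47 in all but MP tumor 10, and the tumors surround the WT ovaries for Cd274.

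Pdcd1 (ENSMUSG00000026285, GRCm38 chr1:94038305-94052553, minus strand) encodes PD-1, the receptor that recruits phosphatases to the activated T cell receptor. In WT ovaries 1, 2 and 3 it measured 10.9, 16.2 and 22.99 TPM, from 311, 288 and 865 reads. The 10 tumors ranged from 0 to 0.819 TPM with a median of 0.239 TPM, and no tumor came near the lowest WT ovary. The tumor values rested on 18 reads in all, 0 in 3 tumors and 1 to 5 in each of the others. Where no read was seen, 3 reads would have given 0.552 TPM in MP tumor 6, 0.642 TPM in MP tumor 7 and 0.585 TPM in MP tumor 9, which bounds those levels. Such bounds, and every interval on reads given here, cover counting error only. Averaged over libraries, Pdcd1 was at 16.7 ± 6.09 TPM in WT ovaries (SD, n = 3) and at 0.302 ± 0.307 TPM in MP tumors (SD, n = 10), which gave a log2 fold change of -3.74 (SE 0.32, limma adjusted P = 7.09e-07). Within library set 1 it was -3.73, with a limma adjusted P of 4.36e-05.

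Depth differed between the groups, and reads were therefore drawn at random down to the 3892690 reads of the shallowest library. Pdcd1 then kept 34, 33 and 54 reads in the WT ovaries and 0 to 3 reads in the tumors. The groups still did not overlap at equal depth. In TPM as deposited, all tumors lay below all WT ovaries for 16.4% of the genes tested, and this share was not computed at equal depth.

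Tigit (ENSMUSG00000071552, chr16:43648861-43664184, minus strand) encodes an inhibitory receptor of T and NK cells that binds the poliovirus receptor Pvr and Nectin2. It measured 4.41, 11.4 and 6.61 TPM in WT ovaries 1, 2 and 3, from 63, 101 and 124 reads. In tumors it had 0 reads in 7 libraries, 1 read in MP tumor 6, 3 reads in MP tumor 9 and 4 reads in MP tumor 10, where the level reached 2.67 TPM. All tumors were below the lowest WT ovary, although the 95% Poisson interval in MP tumor 10 ran from 0.728 to 6.84 TPM and so reached into the WT range. The 0 reads in MP tumor 5 still allowed up to 2.46 TPM, against 0.355 TPM in the deeper MP tumor 3. Against WT ovaries, Tigit had a log2 fold change of -2.65 (SE 0.42, limma adjusted P = 0.000435), and -2.82 (limma adjusted P = 2.72e-05) without MP tumor 10. At equal depth the WT ovaries kept 7, 13 and 8 reads of Tigit and the tumors at most 2. Pdcd1 and Tigit did not rank the WT ovaries alike, since Pdcd1 was highest in WT ovary 3 and Tigit in WT ovary 2.

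**Figure D2:**
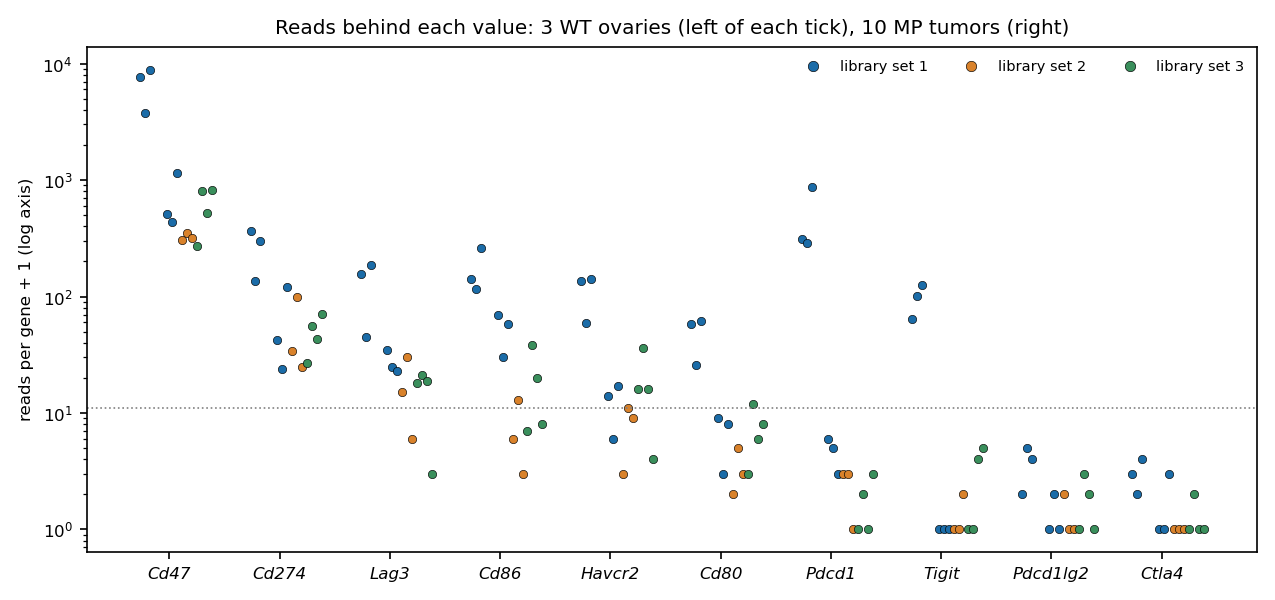
Reads worked back for each checkpoint gene and library, plotted as reads + 1 on a log axis, with the dotted line at 10 reads. All 10 tumors lie under the line for Pdcd1, Tigit, Ctla4 and Pdcd1lg2, and for the last 2 genes the WT ovaries do as well.

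T cell markers were called lower in part, and 2 of them had the higher mean in tumors. The 3 CD3 genes Cd3d, Cd3e and Cd3g, which encode the signaling chains of the T cell receptor, summed to 4.26, 3.67 and 3.77 TPM in WT ovaries 1, 2 and 3 and to between 0 and 1.08 TPM in the tumors, where they had 0 to 14 reads. In bulk RNA, fewer cells of a type and less RNA per cell cannot be told apart. The level of Pdcd1 was 2.55, 4.42 and 6.10 times the CD3 sum in WT ovaries 1, 2 and 3, and that of Tigit 1.03, 3.10 and 1.75 times. Both receptors were therefore as abundant as the CD3 genes or more so in normal ovary, per length. Of the 18 T cell markers, 11 were tested, and 5 were lower (Cd3g, Cd3d, Zap70, Trbc1 and Trbc2) and 0 higher, where 14.3% of all genes were called lower. Of these 5, all but Trbc2 reached 1 TPM in at most 2 tumors and passed the filter only with the WT ovaries, as Pdcd1 and Tigit did, so their count is a description too. Cd6, a T cell surface receptor, went the other way, without passing the test over all libraries, from 0.337 to 7.02 TPM (log2 fold change 2.00, limma adjusted P = 0.111), but was called higher within library set 1 (2.85, limma adjusted P = 0.000801) and with the set as a covariate (limma adjusted P = 0.0179). Cd6 reached 1 TPM in 0 WT ovaries and 7 tumors and passed the filter through the tumors alone, so these calls are a description as well. Cd247, which encodes the zeta chain of the same receptor complex, had means of 0.454 and 1.19 TPM and was not called (log2 fold change 0.39, limma adjusted P = 0.538). Cd4 and Cd8a, which divide helper from cytotoxic T cells, overlapped between groups, with Cd4 at 2.05 to 2.71 TPM in WT ovaries and 0.142 to 2.61 TPM in tumors and Cd8a at 0.169 to 0.592 TPM and 0 to 0.884 TPM. The share of either receptor that came from T cells was not tested, nor was the part of the lower follicle and luteal markers in these differences.

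**Figure D3:**
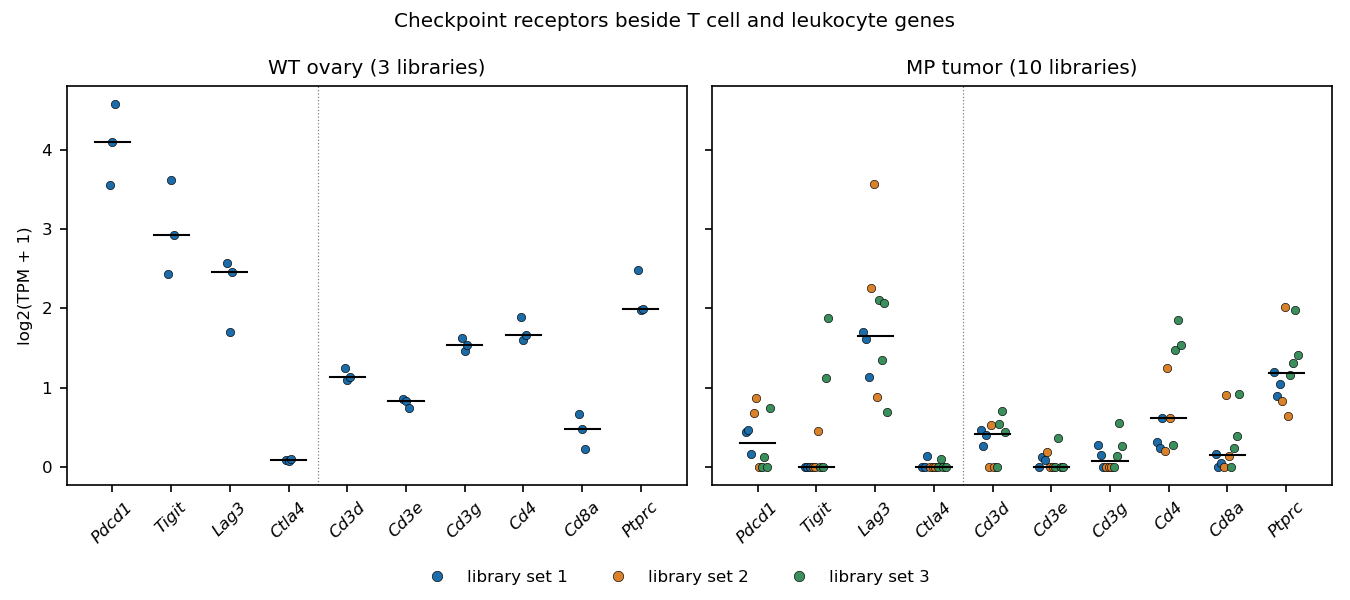
Checkpoint receptors left of the dotted line beside T cell genes and Ptprc right of it, as log2(TPM + 1) in each WT ovary (left panel, n = 3) and MP tumor (right panel, n = 10), with points colored by library set and lines at the medians. Pdcd1 and Tigit lie above Cd3d, Cd3e and Cd3g in the WT ovaries and near 0 in most tumors, while Lag3 keeps a median of 2.15 TPM in the tumors.

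Promoter sequence is shown for the 2 receptors that separated the groups and for Cd274, a ligand that did not. These are the 250 bases before the RefSeq start site on GRCm38.p6, read 5′ to 3′ along the gene, with CG pairs in capitals. Pdcd1 is at chr1:94052554-94052803 (minus strand), Tigit at chr16:43664185-43664434 (minus strand) and Cd274 at chr19:29367188-29367437 (plus strand).
Pdcd1: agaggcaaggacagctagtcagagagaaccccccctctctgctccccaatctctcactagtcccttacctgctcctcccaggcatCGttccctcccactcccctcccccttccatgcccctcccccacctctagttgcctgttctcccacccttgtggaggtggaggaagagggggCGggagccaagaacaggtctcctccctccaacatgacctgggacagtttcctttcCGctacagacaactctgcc
Tigit: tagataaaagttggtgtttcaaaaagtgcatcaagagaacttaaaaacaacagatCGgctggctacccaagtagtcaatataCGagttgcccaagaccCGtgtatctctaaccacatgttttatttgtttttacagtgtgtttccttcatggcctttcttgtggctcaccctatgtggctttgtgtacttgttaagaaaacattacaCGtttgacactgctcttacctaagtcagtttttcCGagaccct
Cd274: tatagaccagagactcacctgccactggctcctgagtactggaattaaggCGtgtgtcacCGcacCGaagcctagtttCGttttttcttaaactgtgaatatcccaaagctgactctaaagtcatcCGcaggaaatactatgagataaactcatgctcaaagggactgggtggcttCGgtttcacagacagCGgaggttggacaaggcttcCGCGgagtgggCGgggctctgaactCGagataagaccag
Pdcd1 held 3 CG pairs, Tigit 5 and Cd274 11, against a median of 6 over all promoters, and Cd47 held 30. Windows from 250 bases before to 50 after the start were searched on both strands in the 8 members with an entry. None held an IRF element of GAAA and GAAA with 2 bases between (in 3.44% of all promoters), an NF-κB element of GGG and TTTCC with 2 bases between (1.63%) or the E-box CACGTG (7.15%). The letters CAAGGTCA, bound by the steroidogenic factor SF-1 and searched after the values were seen, were in none of them and in 1.56% of all promoters.

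Cd47 (ENSMUSG00000055447, chr16:49855618-49915010, plus strand) measured 98.6, 76.8 and 85.7 TPM in WT ovaries 1, 2 and 3. The 10 tumors ranged from 13.5 TPM in MP tumor 1 to 99.8 TPM in MP tumor 10, with a median of 25.0 TPM. MP tumor 10 lay above every WT ovary and the other tumors, 9 of 10, below the lowest, with at least 270 reads in each library. Across all tumors, Cd47 had a log2 fold change of -1.56 (SE 0.50, 95% interval -2.61 to -0.50, limma adjusted P = 0.0440). Without MP tumor 10, in which Trp53 was also high, it was -1.75 (limma adjusted P = 0.00792), and within library set 1 it was -2.27 (limma adjusted P = 0.000740). The call depended on the scaling and on single libraries. With median-of-ratios scaling it was -0.85 (limma adjusted P = 0.123), and with the trend on gene length removed -0.69 (limma adjusted P = 0.185), while the call held with quantile normalization (-1.13, limma adjusted P = 0.0351) and by limma-voom on reads (-1.34, adjusted P = 0.00774). Without any 1 of the WT ovaries the adjusted P was between 0.123 and 0.173, at log2 fold changes of -1.64 to -1.46. The call also ended without MP tumor 1, 3, 4, 6, 7 or 8, where the log2 fold change was -1.58 to -1.44. The receptor gene Sirpa was at 67.3 TPM in WT ovaries and 27.05 TPM in tumors on average (log2 fold change -1.68, limma adjusted P = 0.0901). The ratio of Cd47 to Sirpa had a median of 1.37 in WT ovaries and 1.39 in tumors, with a tumor range of 0.538 to 4.40 that contained the WT range.

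Cd274 (ENSMUSG00000016496, chr19:29367455-29388095, plus strand), encoding PD-L1, measured 6.82, 4.02 and 4.24 TPM in WT ovaries 1, 2 and 3. Tumors ranged from 1.14 TPM in MP tumor 2 to 21.4 TPM in MP tumor 5, with a median of 3.37 TPM, and every tumor had at least 23 reads. In 6 tumors the level was below the lowest WT ovary and in 2 (MP tumors 5 and 10) above the highest, the second at 12.4 TPM. The log2 fold change of -0.21 (SE 0.62, 95% interval -1.53 to 1.11, limma adjusted P = 0.831) came with an interval that held both signs, ran from -0.44 without MP tumor 5 to -0.003 without WT ovary 1, and its sign turned to 0.34, 0.68 and 0.56 with median-of-ratios scaling, quantile normalization and the length trend removed. MP tumor 5 was the shallowest library and had the highest sums of macrophage and pan-leukocyte markers among the tumors (1107 and 236 TPM). Relative to Ptprc, the pan-leukocyte gene CD45, Cd274 was at 1.36 to 1.48 in WT ovaries and at 1.21 to 7.53 in tumors. Within library set 1 the tumors measured 1.57, 1.14 and 3.78 TPM, all below the WT ovaries, and the fitted change was -0.99 on the log2 scale (limma adjusted P = 0.0417). With the library set as a covariate in the fit of all libraries, the same change had a limma adjusted P of 0.234 and was not called. In library set 1 the median over all genes was -1.19 and 57.3% of genes were called lower, and Cd274 was -0.99 beside that median. Cd274 shares 511 exonic bases with the antisense gene AC119228.1, and the sources used here do not say whether reads were counted by strand.

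The order of PD-1 and its ligand by level per length differed between the tissues. In WT ovaries Cd274 was at 0.184 to 0.629 times Pdcd1, below it in 3 of 3 libraries. In the 7 tumors with a Pdcd1 read it was at 3.06 to 32.0 times, and Cd274 was the higher of the pair in 10 of 10 tumors. The Cd274 ranges overlapped between the tissues and the Pdcd1 ranges did not.

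Pdcd1lg2 and Ctla4 did not reach the filter and could not be measured at this depth. Pdcd1lg2, encoding PD-L2, had 8 reads over the 3 WT ovaries (0.0409 to 0.264 TPM) and 5 reads over the 10 tumors (0 to 0.348 TPM). Ctla4 had 6 reads in WT ovaries (0.0466 to 0.0661 TPM) and 3 in tumors (0 to 0.0979 TPM). For both genes the ranges overlapped. In a fit without the filter the limma adjusted P was 0.765 for Pdcd1lg2 and 0.313 for Ctla4. The 0 reads of Ctla4 in MP tumor 5 allowed up to 1.02 TPM, above any WT level.

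Cd80 and Cd86, the B7 ligands shared by CD28 and CTLA-4, were low in both tissues. Cd80 measured 2.26, 1.595 and 1.84 TPM in WT ovaries 1, 2 and 3, and 0.212 to 2.65 TPM in tumors (median 0.570 TPM), with 1 to 11 reads in each tumor. The highest tumor, MP tumor 10, exceeded all WT ovaries on 7 reads, and 8 tumors were below the lowest WT ovary. Cd80 had a log2 fold change of -0.67 (95% interval -1.40 to 0.06, limma adjusted P = 0.180). It was called within library set 1 (-1.01, limma adjusted P = 0.00376) and with the set as a covariate (limma adjusted P = 0.0493). The median over all genes was -1.19 in both fits. Cd86 measured 2.57, 3.38 and 3.64 TPM in WT ovaries and 0.194 to 2.62 TPM in tumors (median 1.54 TPM). Of the tumors, 8 lay below the WT range and MP tumors 1 and 5 just inside it. Its log2 fold change was -0.82 (95% interval -1.60 to -0.04, limma adjusted P = 0.134), with the sign turning to 0.05 under quantile normalization. Relative to Ptprc, Cd86 overlapped between groups, at 0.557 to 1.22 in WT ovaries and 0.345 to 2.02 in tumors. Cd86 was above Cd80 in 3 of 3 WT ovaries and 8 of 10 tumors.

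Lag3, an inhibitory receptor for MHC class II, measured 4.95, 2.26 and 4.52 TPM in WT ovaries 1, 2 and 3. Tumors ranged from 0.610 TPM in MP tumor 10 to 10.9 TPM in MP tumor 5, with a median of 2.15 TPM. Below the WT range were 6 tumors, and above it was MP tumor 5, on 29 reads. The log2 fold change was -0.51 (95% interval -1.62 to 0.60, limma adjusted P = 0.499), and its sign turned to 0.04, 0.38 and 0.14 under median-of-ratios scaling, quantile normalization and removal of the length trend. Lag3 had 2 to 34 reads in each tumor. In the 8 tumors with any CD3 read it was at 1.11 to 27.1 times the CD3 sum, against 0.617 to 1.201 times in WT ovaries. The ratios of 27.1 in MP tumor 4 and 24.96 in MP tumor 5 rested on 1 CD3 read each, and the other 6 tumors reached at most 5.16.

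Havcr2, encoding TIM-3, a receptor of exhausted T cells that macrophages and dendritic cells also carry, measured 3.32, 2.31 and 2.64 TPM in WT ovaries 1, 2 and 3. Tumors ranged from 0.331 to 2.91 TPM with a median of 0.877 TPM, and 9 of them were below the lowest WT ovary. The log2 fold change was -0.79 (95% interval -1.60 to 0.02, limma adjusted P = 0.162), and -1.27 within library set 1 (limma adjusted P = 0.00128). In that set the median over all genes was -1.19. Its ratio to Ptprc was 0.717 to 0.886 in WT ovaries and 0.382 to 1.86 in tumors. Ptprc itself had means of 3.52 and 1.498 TPM (log2 fold change -0.90, limma adjusted P = 0.0920).

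**Figure D4:**
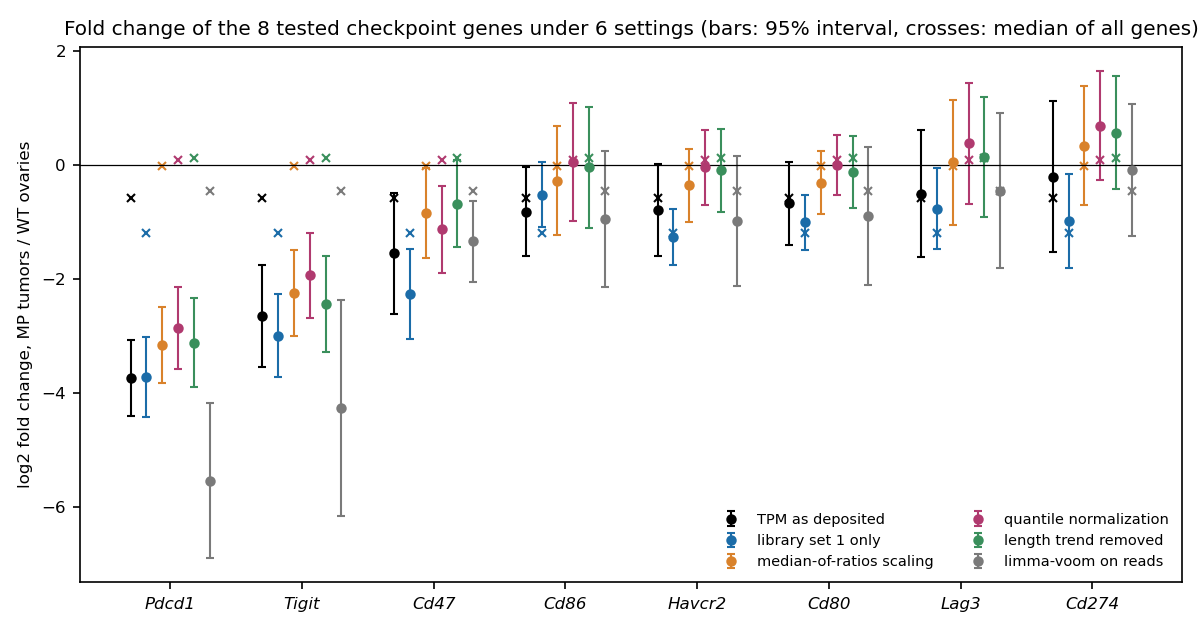
Log2 fold change of the 8 tested members, MP tumors against WT ovaries, under each scaling or sample choice, with bars for the 95% interval and crosses at the median of all genes. Pdcd1 and Tigit stay below 0 throughout, Cd47 varies from -2.27 to -0.69 among the choices drawn, and Cd274, Lag3 and, with quantile normalization, Cd86 cross 0.

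These fold changes should be read beside that of the typical gene. The median log2 fold change over all genes tested was -0.58, and it moved to -0.02 with median-of-ratios scaling, 0.08 with quantile normalization and 0.12 with the length trend removed. The split of higher and lower calls moved with it, from 433 and 2463 genes to 1276 and 1896, 1904 and 2091, and 1979 and 1588 genes. Measured from the median gene, Cd86 was at -0.24, Havcr2 at -0.21 and Cd80 at -0.10 on the log2 scale, and Cd274 at 0.37 and Lag3 at 0.07, while Pdcd1 was at -3.16, Tigit at -2.08 and Cd47 at -0.98. Within library set 1, 6 of 8 tested members were called lower (Pdcd1, Tigit, Cd47, Havcr2, Cd80 and Cd274) where 57.3% of all genes were. With the library set as a covariate in the fit of all 13 libraries, 5 of these 6, all but Cd274, were called lower beside 49.4% of all genes.

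Ligands of Tigit and Havcr2 were mixed in their calls, in a fit where 14.3% of all genes tested were called lower. Pvr went from 23.7 to 12.1 TPM on average (log2 fold change -1.14, limma adjusted P = 0.171), Nectin2 from 121 to 65.4 TPM (limma adjusted P = 0.222), and Lgals9, encoding the TIM-3 ligand galectin-9, from 75.5 to 40.6 TPM (limma adjusted P = 0.174), none of which passed the test. Ceacam1, also described as a TIM-3 ligand, was called lower at 2.34 and 0.558 TPM (log2 fold change -1.16, limma adjusted P = 0.0235), but reached 1 TPM in 2 tumors and so needed the WT ovaries to pass the filter. Among 23 other checkpoint and costimulatory ligands, 16 were tested and 5 were lower, among them Thbs1, which encodes the CD47-binding protein thrombospondin-1 (log2 fold change -4.54, limma adjusted P = 0.00339), and H2-T23, the mouse Qa-1 gene that presents to NKG2A (-3.14, limma adjusted P = 0.0120). Of 21 other receptors 9 were tested and 2 were lower. Tnfrsf9, the costimulatory receptor 4-1BB, fell from 44.8 to 4.62 TPM (log2 fold change -3.16, limma adjusted P = 0.000939), and Cd160 from 1.53 to 0.288 TPM (limma adjusted P = 0.00732), although Cd160 passed the filter through the WT ovaries alone. Neither list had a gene called higher in this fit of all libraries on log2(TPM + 1). With a pseudocount of 0.1, Tnfrsf4, the costimulatory receptor OX40, was called higher (log2 fold change 2.36, limma adjusted P = 0.0483). Within library set 1, 11 of the 16 ligands and 5 of the 9 receptors were lower, where 57.3% of all genes were. There 1 gene of each list was called higher, Tnfrsf4 (limma adjusted P = 0.0491) and Fgl1, which encodes a ligand of LAG-3 (0.77, limma adjusted P = 0.0422). Both were also called with quantile normalization and with the length trend removed, but neither with the set as a covariate. Fgl1 reached 1 TPM in 0 WT ovaries and 9 tumors and Tnfrsf4 in 1 and 10. Both thus needed the tumors to pass the filter, and their calls are a description. Over all libraries Tnfrsf4 was higher at an unadjusted P under 0.05 and was called by limma-voom on reads, with means of 0.921 and 4.82 TPM (log2 fold change 1.48, limma adjusted P = 0.0610). It was higher in each of 10 tumors than in any WT ovary.

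The interferon γ pathway, which signals through JAK kinases, induces PD-L1. Of 20 tested genes in a list of this pathway and of PD-L1 regulation, 7 were lower and 0 higher, with a median log2 fold change of -1.53. Over all genes tested, 14.3% were lower and the median was -0.58. By limma-voom on reads 14 of the 20 were lower. Within library set 1 the number was 17 (median -2.59), where 57.3% of all genes were lower and their median was -1.19. It was 5 with median-of-ratios scaling (median -0.93) and 4 with the length trend removed (median -0.71). Jak1 fell from 276 to 47.0 TPM (log2 fold change -3.11, limma adjusted P = 0.0123) and Ifngr1 from 85.2 to 31.7 TPM (-1.47, limma adjusted P = 0.0128). Irf1 went from 44.0 to 17.4 TPM without passing the test (-1.64, limma adjusted P = 0.0863). Ifng had 3, 0 and 1 reads in WT ovaries 1, 2 and 3 and 1 read in each of 2 tumors, which leaves its level unmeasured. Cd274 itself was not called.

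Markers of the cells that carry the members were counted in the same fit, where 14.3% of all genes tested were called lower. Dendritic cell genes were lower in 3 of 9, led by Clec9a (log2 fold change -2.51, limma adjusted P = 4.32e-05), with Cd209a (-1.56, limma adjusted P = 0.00691) and Itgax (-2.08, limma adjusted P = 0.00857). Clec9a reached 1 TPM in 2 tumors and Cd209a in 1, so both needed the WT ovaries to pass the filter. Flt3 (0.443 and 2.65 TPM, limma adjusted P = 0.201) and Ccr7 (0.584 and 2.09 TPM, limma adjusted P = 0.229) had the higher mean in tumors without passing the test, and with the length trend removed 2 dendritic cell genes were called higher and 1 lower. Macrophage genes were called by limma in 0 of 12, with 6 lower at an unadjusted P under 0.05 and 3 by limma-voom on reads (median log2 fold change -0.86, Csf1r -2.10 with limma adjusted P = 0.103, Adgre1 -1.03 with 0.149), and their sum was 768 to 1094 TPM in WT ovaries and 233 to 1107 TPM in tumors. NK genes were lower in 1 of 4 (Nkg7), and in 0 by limma-voom or with median-of-ratios scaling, B cell genes in 0 of 3 (1 at an unadjusted P under 0.05, 0 by limma-voom), pan-leukocyte genes in 1 of 8 (Cd52), epithelial genes in 3 of 7, stromal and vessel genes in 3 of 10 and follicle and luteal genes in 11 of 12. These counts describe the lists, since Nkg7, Cdh1, Zp3, Cyp19a1, Fshr and Lhcgr reached 1 TPM in 0 to 2 tumors and could not have passed the filter without the WT ovaries. No marker was called higher in this fit or by limma-voom, and 1, Cd6, was higher at an unadjusted P under 0.05. Cd6, Flt3 and Ccr7 reached 1 TPM in 0 WT ovaries and passed the filter through the tumors alone. Within library set 1, where 57.3% of all genes were called lower, the counts were 9 of 12 macrophage, 6 of 9 dendritic cell, 9 of 11 T cell, 1 of 4 NK, 1 of 3 B cell, 7 of 8 pan-leukocyte, 5 of 7 epithelial, 9 of 10 stromal and 12 of 12 follicle and luteal genes lower, with Cd6 called higher. By limma-voom on reads 4 of 8 pan-leukocyte and 8 of 10 stromal genes were lower. Of the genes leading these lists, Cdh1 (log2 fold change -2.91, limma adjusted P = 0.00130) and Epcam (-3.58, limma adjusted P = 0.00287) encode epithelial adhesion proteins, and Zp3 of the oocyte coat (-6.09, limma adjusted P = 6.28e-08) and the estrogen-making enzyme Cyp19a1 (-3.78, limma adjusted P = 4.14e-08) mark follicles. The contractile gene Acta2 (-3.23, limma adjusted P = 0.0102) and Pdgfra (-4.13, limma adjusted P = 0.0125) led the stromal list. The summed T cell markers ran from 32.1 to 42.3 TPM in WT ovaries and from 9.65 to 39.6 TPM in tumors, with MP tumor 10 highest. Cd6 alone made up 18.3 TPM of the sum of 22.5 TPM in MP tumor 1, and without it, a sum taken after its values were seen, the markers ran from 31.8 to 41.9 TPM in WT ovaries and from 2.90 to 28.2 TPM in tumors. The part of these cell types in the members' levels was not tested.

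Per length, WT ovaries ranked Cd47, Pdcd1, Tigit, Lag3, Cd274, Cd86, Havcr2, Cd80, Pdcd1lg2 and Ctla4 from high to low by median, and only the steps from Cd47 to Pdcd1, from Cd274 to Cd86, from Havcr2 to Cd80 and from Cd80 to Pdcd1lg2 had ranges that did not overlap. In tumors the order by median was Cd47, Cd274, Lag3, Cd86, Havcr2, Cd80 and Pdcd1, followed by 3 genes with a median of 0. All neighbors in that order overlapped, although Cd47 was above Cd274 in 10 of 10 tumors. Over the 10 tumors, genes whose rank order was most like that of Cd86 were Aif1 and Cd48, both expressed in leukocytes, and 1600020E01Rik, with Spearman rho of 0.988, 0.927 and 0.855. For Cd47 they were Ptprg, Syde1 and Sdcbp (rho 0.976, 0.976 and 0.964, against a median of 0.467 over all genes compared). For Cd274 they were Lppos, Esyt3 and Ptbp3 (0.976, 0.964 and 0.964, median 0.430), and for Lag3 Acot2, Gpcpd1 and Fst (0.939, 0.939 and 0.927). These are descriptions of 10 libraries that also differ in depth, and carry no test.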

How the data were processed

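The authors deposited TPM values and gene lengths of 13 libraries (3 WT ovaries, 10 MP tumors), with no pooling. The submitters' processing notes name mm10 and GRCm38, FastQC 0.11.5, Trimmomatic 0.36, STAR 2.5.3a and featureCounts 1.6.3, whereas the protocol text names a human build, HTSeq and RPKM. Of the table's genes, 96.2% had GENCODE M21 coordinates. A length column gives each gene's length in bases, and the lengths or ends of Pdcd1lg2, Tigit, Cd47 and Cd80 differ from M21. TPM times length was a whole multiple of 1 step within 0.01, which gave reads per gene and depth. The number of columns of other samples was 0.

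Testing covered genes that reached 1 TPM in 3 or more libraries and used log2(TPM + 1), a scale that understates changes of low genes, with limma 3.58.1 (trended, robust) in R 4.3.3, Benjamini-Hochberg threshold 0.05. Members and gene lists were chosen with earlier results of these data known. Named genes are the members, the 2 smallest P values of each list, preset lineage and pathway genes, and the 3 genes most like each of the 4 members with a median of at least 1 TPM in tumors, while Ceacam1, Tnfrsf4, Fgl1, Flt3, Ccr7, Cd6, Cd247 and the other genes named in counts were chosen after their values were seen. Some results of the named-gene rule and motif search are not reported here. Other settings (pseudocount, filter, scaling, length trend, limma-voom on reads, thinning, library set, replicate block, single libraries) numbered 27. In simulated data, limma recovered 170 of 200 genes changed by 4 on the log2 scale among 17277, with 3 false calls, and smaller changes were not simulated. Drawing used matplotlib 3.10.9 in Python 3.11.15.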

Additional observations from a re-analysis of the deposited data

Results flagged for a closer look

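Of the 10 members, 3 had a tumor far from the other tumors by Dixon's 95% limit, applied to TPM and not to log2(TPM + 1). The rate of 1 in 20, or 0.5 of 10, holds for normally distributed values. TPM is skewed, and Tigit had 0 reads in 7 tumors, so the number flagged cannot be set against that rate. Lag3 stood at 10.9 TPM in MP tumor 5 (29 reads), with the next tumor at 3.80 TPM. Tigit stood at 2.67 TPM in MP tumor 10 on 4 reads, with the next at 1.17 TPM. Cd47 stood at 99.8 TPM in MP tumor 10 (819 reads), with the next at 52.9 TPM. The library labelled MP tumor 10 also had 187 TPM of Trp53, the targeted gene, above the WT ovaries and the other tumors. Its follicle and luteal markers summed to 1766 TPM, against at least 28387 TPM in WT ovaries. Whether its label is right was not tested.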

How the results depend on the processing

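Pdcd1 and Tigit were called lower under all 27 alternatives run, with log2 fold changes of -5.79 to -2.86 and of -5.07 to -1.94. The sign of the fold change of Cd274 reversed to 0.34, 0.68 and 0.56 and that of Lag3 to 0.0439, 0.38 and 0.14 with median-of-ratios scaling, quantile normalization and the length trend removed, and that of Cd86 to 0.0471 with quantile normalization. Cd47 was no longer called with a pseudocount of 0.1 (log2 fold change -1.59, limma adjusted P = 0.0531), without the filter (-1.56, 0.0577), at equal depth (-1.54, 0.0531), with median-of-ratios scaling (-0.85, 0.123), with the length trend removed (-0.69, 0.185), or without any WT ovary or MP tumor 1, 3, 4, 6, 7 or 8 (-1.64 to -1.44). Cd80 was called in library set 1 (-1.01, limma adjusted P = 0.00376), with the set as covariate (0.0493), with the replicate block (0.00448) and without MP tumors 5 and 10 together, a setting chosen after seeing the data (-0.88, 0.0228). Havcr2 was called in library set 1 (-1.27, limma adjusted P = 0.00128), with the covariate (0.0222) and with the block (0.00120). Cd274 was called in library set 1 (0.0417) and with the block (0.0236). In library set 1, with the covariate and with the block, the median log2 fold change over all genes was -1.19. The causes were not tested.

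Genes called higher numbered 433 in the fit of the report, 1276 with median-of-ratios scaling, 1904 with quantile normalization, 1979 with the length trend removed, 1879 by limma-voom on reads, 1112 in library set 1 and 894 with the set as covariate. Genes called lower numbered 2463, and 1588 with the length trend removed, 4042 by limma-voom, 9902 in library set 1, 8534 with the set as covariate and 4003 without MP tumors 5 and 10. Members called lower numbered 6 in library set 1 and 5 with the covariate. Genes of the other lists called lower numbered 41, and 64 by limma-voom, 92 in library set 1, 84 with the covariate and 69 without MP tumors 5 and 10. Those called higher numbered 0, and 1 with a pseudocount of 0.1, 2 with quantile normalization, 4 with the length trend removed, 1 by limma-voom, 3 in library set 1, 1 with the covariate and 2 without MP tumors 5 and 10.

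The sample titles give no pairing of the WT ovaries and MP tumors that share a replicate number. The deviations of such libraries had correlations of -0.0963, -0.0214 and 0.00118. A replicate block in library set 1 gave 1095 genes higher, 9838 lower, 6 members lower, and 94 lower and 2 higher genes of the other lists.

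Leaving out 1 library at a time gave 94 to 635 genes higher, 1158 to 3264 lower, 2 to 3 members lower, log2 fold changes of Cd274 of -0.44 to -0.003, and 19 to 59 lower and 0 to 1 higher genes of the other lists. Tumors with 0 reads numbered 6 for Pdcd1lg2, 8 for Ctla4 and 7 for Tigit, against 3 for Pdcd1. A single read of Tigit stood for 0.821 TPM in MP tumor 5.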

Other observations

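Cd276, encoding B7-H3, was at 16.5 TPM in WT ovaries and 29.9 TPM in MP tumors on average, while its log2 fold change was -0.15 (limma adjusted P = 0.930). The gene was chosen after its values were seen.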
